A study of Homo sapiens with 12 samples.

Results

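The p65-deficient HCT116 clone 32 was compared with WT HCT116 cells to describe how far the 2 lines differ apart from treatment. Of the 12 RNA-seq libraries of the study, 6 came from clone 32 and 6 from WT cells, and the libraries formed 6 matched pairs of equal inhibitor and TNFα time. Both lines had been kept without inhibitor or treated with 5 µM of CPT, which inhibits TOP1, or of ICRF193, which inhibits TOP2, for 2 h, and then received no TNFα (0 h) or 20 ng/mL for 1 h. HCT116 is a human colon cancer line. According to the methods of the study, clone 32 is a single-cell clone made with CRISPR-Cas9 and puromycin selection, with a guide aimed at the third exon of the p65 gene, whereas the deposited labels read shRNA p65. Only 1 clone was sequenced, so that the absence of p65 and the history of this clone cannot be told apart. Each condition had 1 library per line. The 6 pairs therefore stood in for replicates, and p-values measure the spread of the clone-to-WT difference over the 6 treatments and not between cultures of 1 treatment.

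p65, encoded by *RELA*, is the NF-κB subunit with the strong transactivation domains. In unstimulated cells, NF-κB dimers are held in the cytoplasm by IκB proteins. TNFα leads to activation of the IKK kinase, degradation of IκBα and binding of the dimers to κB sites of chemokine, survival and feedback genes, among them the genes of IκBα and A20.

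The WT libraries held 16300210 to 22051046 counted reads each. In clone 32, the libraries without inhibitor and with CPT at 0 h had 20524958 and 18502365 reads, and the other 4 had 8101212 to 8755001, so that depth and line partly coincide. Colon epithelial markers fixed as a list summed to 52540 to 59480 normalized counts (read counts divided by the size factor of the library) in WT and to 52990 to 68710 in clone 32, with reads for 9 of 9 markers. Fibroblast markers summed to at most 138 in WT and 197 in clone 32, with *COL1A2*, *COL3A1*, *PDGFRB*, *DCN* and *LUM* at 3 reads or fewer in every library. Leukocyte markers reached at most 30.0 and endothelial markers at most 33.0 in any library, and *CD3E* had no read.

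*RELA* mRNA itself was reduced but present in clone 32. Its normalized count was 694 at the lowest, 871 at the median and 909 at the highest in WT, and 548, 596 and 673 in clone 32. Every clone library was below every WT library. The mean was 830 ± 94.7 in WT and 602 ± 50.9 in clone 32 (SD, n = 6), and the mean log2 ratio of the pairs was -0.46 ± 0.29 (SD), or 72.7% of WT, with an exact two-sided sign-flip permutation p of 0.0312, the smallest that 6 pairs can give. The pairs were uneven. The log2 ratio was -0.73, -0.47, -0.62 and -0.71 in the pairs without CPT and -0.04 and -0.18 in the pairs with CPT, a difference of 0.51 ± 0.10 (SE, edgeR adjusted p = 0.00288). The gene lies on chr11:65421067-65430443 of hg19. Exon counts over the whole gene do not show the edited site and give no measure of p65 protein. Of 82 genes tested within 1 Mb of *RELA*, 16 were higher, 10 lower and 0 past 2-fold, with a median log2 fold change of 0.05. Over all 13730 tested genes, 15.2% were higher and 16.9% lower, with a median of 0.00.

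When the pair entered edgeR's quasi-likelihood model as a block, 2316 of 13730 genes were lower in clone 32 (16.9%) and 2092 were higher (15.2%) at an adjusted p under 0.05. Most of these differences were small. The median size of a called change was 0.29 on the log2 scale, and 3370 of the 4408 called genes (76.5%) differed by less than 0.5. A difference of more than 2-fold was called for 128 lower genes (0.932%) and 105 higher genes (0.765%), and 208 of these 233 went in the same direction in all 6 pairs. All 6 clone libraries lay below all 6 WT libraries for 676 genes (4.92%) and above them for 553 (4.03%). Within the 3 pairs at 0 h TNFα, 645 of 13825 genes were lower (4.67%) and 534 higher (3.86%), 118 (0.854%) and 85 (0.615%) of them by more than 2-fold. In the 2 pairs of full depth alone, 226 of the 229 testable genes among the 233 kept their direction, the exceptions being *CXCL1*, *CXCL2* and *CXCL3*. Of these, 134 were also called. In the 4 pairs with a low-depth library, 200 of 200 kept their direction and 197 were called. The 233 genes were chosen from the same libraries, so that a kept direction is largely given by this choice.

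**Figure D1:**
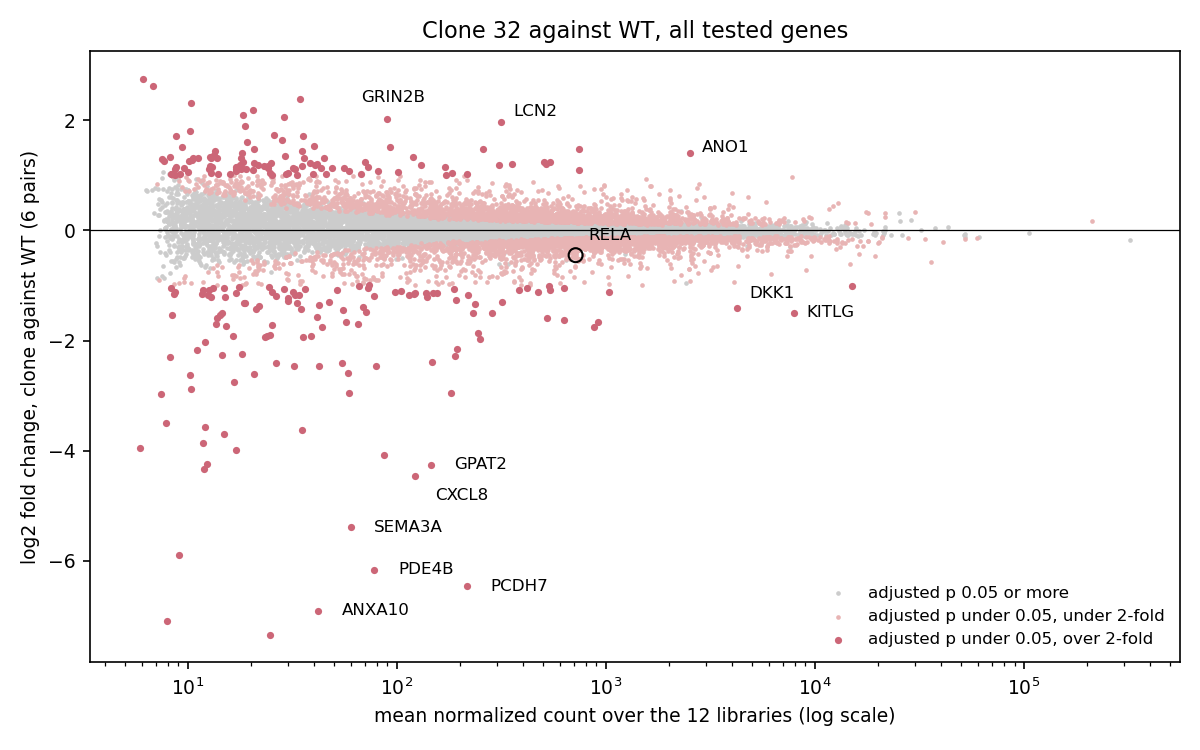
Log2 fold change of clone 32 against WT over the 6 pairs (vertical axis) plotted against the mean normalized count over the 12 libraries (horizontal log axis). Each point is 1 of 13730 tested genes, coloured by adjusted p and fold, and the black circle marks *RELA*. The strongest differences lie on the lower side, down to *KLHL4* at -7.34, while the raised genes past 2-fold reach 2.76 (*MUC16*).

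The 15 genes lowered most in clone 32, taken among genes with a mean normalized count of 50 or more that moved alike in the 6 pairs, included several with fewer than 10 reads in most clone libraries. *PCDH7*, a protocadherin, had 354 at the lowest, 429 at the median and 496 at the highest in WT, and 1.75, 4.12 and 7.80 in clone 32. The log2 fold change was -6.46 ± 0.15 (SE, edgeR adjusted p = 2.53e-12), an 88.3-fold lower level. *PDE4B*, a cAMP phosphodiesterase, had 41.5, 206 and 213 in WT and 0, 1.63 and 4.74 in clone 32. Neither gene overlapped between the lines. *SEMA3A*, a secreted axon guidance protein, had 96.3, 117 and 133 in WT against 1.40, 2.04 and 6.80. *GPAT2*, a glycerol-3-phosphate acyltransferase, had 258, 264 and 326 in WT against 6.80, 11.8 and 20.5, with a log2 fold change of -4.26 ± 0.15, or 19.1-fold lower. All clone libraries were again below all WT libraries. In bulk RNA, fewer cells that express a gene and less RNA of it per cell cannot be told apart. The log2 fold changes in the 3 pairs at 0 h TNFα were close to these values, with -6.45 for *PCDH7*, -6.25 for *PDE4B*, -6.03 for *SEMA3A* and -3.97 for *GPAT2*.

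A further 8 genes of this group were lowered 3.26-fold to 7.72-fold, and *CXCL8* and *BIRC3*, which also belong to it, are described with the NF-κB genes. *B3GALNT1*, a glycosyltransferase of globoside synthesis, had a median of 316 in WT and 40.2 in clone 32. *SGCE*, an imprinted sarcoglycan gene, had 96.4 and 17.2. *RASSF8*, a Ras association domain protein, had 135 and 24.2, and *MAOB*, a monoamine oxidase, 93.1 and 17.4. *ARMC4* (an axonemal dynein docking factor), *MKX* (a homeobox transcription factor) and *MPP7* (a polarity scaffold) had medians of 241, 311 and 1366 in WT and 46.7, 63.9 and 410 in clone 32. *LTBP1*, which binds latent TGFβ, had 104 and 28.3. The lines did not overlap for any of these 8 genes.

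Read in all 6 WT libraries with at least 20 reads and at most 3 reads in each clone library were 5 genes, whereas 0 genes showed the opposite pattern. *ANXA10*, an annexin, had 90 to 127 reads per WT library and 0 to 2 in clone 32, with 643 and 3 reads in all and a ratio of 143 after scaling (exact 95% counting interval 48.6 to 694). *KLHL4*, a kelch-like gene, had 43 to 78 reads per WT library and 1 read in clone 32 altogether, which gives a ratio of 254 with an interval of 45.3 to 10050. These intervals cover counting error only. *NPNT*, an extracellular matrix ligand of integrins, *SEMA3E*, a semaphorin, and *ABCB1*, the drug efflux pump P-glycoprotein, had 171, 170 and 182 reads over the WT libraries and 7, 9 and 6 over the clone libraries. After scaling for depth, the ratios were 16.3, 12.6 and 20.2. Because 4 clone libraries were shallow, the number of such genes depends on depth. With all libraries thinned to 8101212 reads, 3 genes met the rule.

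The 15 genes raised most were raised 2.23-fold to 4.05-fold. *GRIN2B*, an NMDA receptor subunit, had 19.7 at the lowest, 38.8 at the median and 46.8 at the highest in WT, and 77.2, 152 and 194 in clone 32 (log2 fold change 2.02 ± 0.12 (SE), edgeR adjusted p = 4e-08). *LCN2*, the siderophore-binding protein lipocalin 2 and a known NF-κB target, had 99.8, 133 and 152 in WT and 464, 501 and 551 in clone 32. It was 3.90-fold higher (1.96 ± 0.08, edgeR adjusted p = 6.41e-10), with the log2 ratio above 1.6 in each pair. *ANO1*, a calcium-activated chloride channel, had 1299, 1402 and 1426 in WT and 3475, 3623 and 3830 in clone 32. For all 15 genes, every clone library was above every WT library.

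Of the other raised genes, *COL13A1*, a transmembrane collagen, had medians of 136 in WT and 388 in clone 32, *LOXL4*, a lysyl oxidase that crosslinks collagen, 406 and 1153, and *HAS3*, a hyaluronan synthase, 213 and 500. *FGF19*, an endocrine fibroblast growth factor of the intestine, had 316 and 742. *AQP3*, a water and glycerol channel, had 178 and 414, and *PROM2*, a prominin of membrane protrusions, 71.9 and 175. *ADGRV1*, an adhesion G protein-coupled receptor, had 48.9 and 148. *SH3TC2* had 305 and 772, *MRI1*, an enzyme of methionine salvage, 313 and 713, and *LONRF2* 42.7 and 97.5. The zinc finger genes *ZNF446* and *ZNF488* had 79.9 and 44.5 in WT and 187 and 105 in clone 32.

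**Figure D2:**
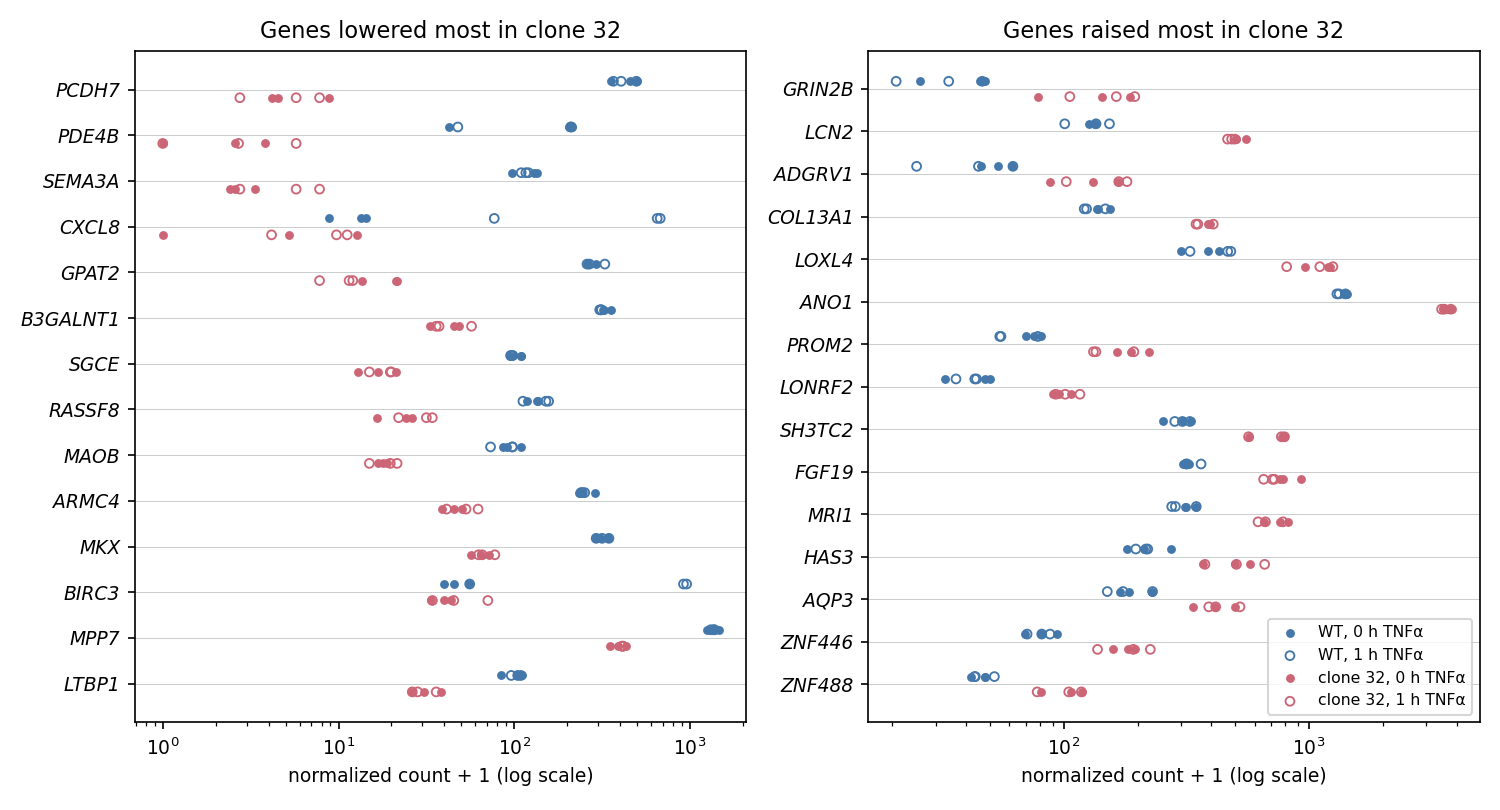
Normalized count + 1 (horizontal log axis) of 14 of the genes lowered most (left) and the 15 raised most (right), with 1 point for each of the 6 WT libraries (blue) and the 6 libraries of clone 32 (red). Filled points are 0 h and open points 1 h TNFα. The lines are apart in all 15 raised genes and in 12 of the 14 lowered genes, while *CXCL8* and *BIRC3* are apart mainly in the WT libraries at 1 h.

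The 6 genes past 2-fold with the highest mean normalized count, a value not scaled by gene length, were chosen after the values were seen. *SSFA2* had a median of 21280 in WT and 10480 in clone 32. *KITLG*, the ligand of the KIT receptor, had 11130, 11460 and 13030 in WT (lowest, median, highest) and 3187, 4282 and 4894 in clone 32, a 2.83-fold lower level (edgeR adjusted p = 1.15e-08). *DKK1*, a secreted Wnt antagonist, had medians of 8108 and 2934. It was lower in all pairs (log2 fold change -1.40 ± 0.04 (SE)), although the ranges of the lines overlapped. With CPT its level was 1456 and 1385 in WT and 593 and 540 in clone 32, below the other libraries of the same line. *PRKACB*, a catalytic subunit of protein kinase A, had 1365 and 628, *COL12A1*, a fibril-associated collagen, had 1427 and 427, and *ANO1* was the only raised gene of the 6.

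NF-κB subunit genes other than *NFKB1* were lower in clone 32 over the 6 pairs. Of the 5 genes, 4 were lower (80.0%, against 16.9% of all genes), with a median log2 fold change of -0.56, against 0.00 over all tested genes. At 0 h TNFα alone, edgeR called 3 as lower and DESeq2 1, and the count was 1 without the untreated pair, 4 without the CPT pair and 0 without the ICRF193 pair, which leaves the 2 pairs of full depth, where 3 had an unadjusted edgeR p under 0.05. The median at 0 h was -0.41. *RELB*, the subunit of the non-canonical pathway, had 163 at the lowest, 251 at the median and 514 at the highest in WT and 104, 123 and 145 in clone 32, without overlap. Its log2 fold change was -1.18 ± 0.18 over 6 pairs (edgeR adjusted p = 0.00027) and -0.76 ± 0.15 over the 3 pairs at 0 h (edgeR adjusted p = 0.0116). *REL*, which encodes c-Rel, differed by -0.56 and *NFKB2*, which encodes p100, by -0.62, both with overlapping ranges. The difference of *NFKB2* was -0.16 at 0 h (edgeR adjusted p = 0.259), and its log2 ratio was -1.49, -0.56 and -1.22 in the pairs at 1 h without inhibitor, with CPT and with ICRF193. *NFKB1*, which encodes p105, was nearly equal, with medians of 1351 and 1367 and a log2 fold change of 0.00 ± 0.05.

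The inhibitors and targets of NF-κB had lower list medians in the pairs at 1 h TNFα without CPT than in the other pairs. Of 11 tested IκB and feedback genes, 5 were lower (45.5%, against 16.9% of all genes) and 0 higher, with a median of -0.36 over 6 pairs and 0.01 over the 3 pairs at 0 h. Of 43 tested NF-κB targets, 16 were lower (37.2%, against 16.9% of all genes), 8 of them more than 2-fold, and 1 was higher (2.33%, against 15.2%), with a median of -0.28 over 6 pairs. At 0 h, the median was 0.01, with 1 gene lower and 3 higher of 41. Without the CPT pair, 14 targets were lower and 6 higher of 40 at 0 h, with a median of -0.01, and 3 of the 11 IκB and feedback genes were lower. The same fit called more genes of every kind, with 1948 lower and 1883 higher of all 13835 tested genes. *CXCL8*, which encodes interleukin 8, had 7.88, 12.5 and 13.2 normalized counts in the WT libraries at 0 h and 675, 75.9 and 648 at 1 h, in the order no inhibitor, CPT and ICRF193. The clone libraries had 4.21, 11.7 and 0 at 0 h and 10.2, 8.73 and 3.16 at 1 h. *TNFAIP3*, which encodes the deubiquitinase A20, had 93.9, 44.0 and 117 at 0 h and 1102, 151 and 1022 at 1 h in WT. In clone 32 it stayed between 53.1 and 82.1. *BIRC3*, an apoptosis inhibitor, reached 954 and 916 in the WT libraries at 1 h without CPT, while all other libraries had 32.8 to 69.7. *NFKBIA*, which encodes IκBα, was 909 to 1067 in WT at 0 h and 929 to 1393 in clone 32 over both times. It rose to 8758 and 8228 in WT at 1 h without CPT, and did not pass the 6-pair test (log2 fold change -0.95 ± 0.39, edgeR adjusted p = 0.0784). With the 88 genes called for a TNFα effect in WT cells left out, 3 of 18 targets were lower and 1 higher, a share of lower genes near the 16.9% of all genes. These 88 genes were chosen from the same WT libraries that enter the comparison.

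At 0 h TNFα, *RELB* was the 1 target lower in clone 32, and the 3 targets higher were *LCN2*, *PLAU* and *ELF3*. *PLAU*, which encodes urokinase, differed by 0.61 ± 0.06 at 0 h (edgeR adjusted p = 0.000257) and *ELF3*, an epithelial ETS factor, by 0.81 ± 0.06 (edgeR adjusted p = 1.86e-05). Over 6 pairs, their log2 fold changes were 0.25 and 0.36 and did not pass the test. *TAP1*, the peptide transporter of antigen presentation, was lower in every clone library than in every WT library (-0.28 ± 0.05), as was *CYLD*, a deubiquitinase that restrains NF-κB (-0.42 ± 0.07).

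Of 22 tested genes of the TNF receptor and IKK pathway upstream of NF-κB, 2 were higher (9.09%) and 9 lower (40.9%, against 16.9% of all genes), with a median of -0.10, and 1 passed 2-fold (*BIRC3*). In the 3 pairs at 0 h TNFα, 0 were called higher and 0 lower, with a median of -0.08, and *BIRC3* was at -0.29. The 2 pairs of full depth also had 0 higher and 0 lower. The receptor gene *TNFRSF1A* had medians of 959 in WT and 1136 in clone 32 and was not called. The kinase genes *IKBKB* and *CHUK* had 495 and 2186 in WT and 532 and 1977 in clone 32. *CHUK* was called at a log2 fold change of -0.12. *FADD* and *CASP8*, which link death receptors to caspases, were higher by 0.28 and 0.25, and *CFLAR*, their inhibitor, differed by -0.25. With CPT at 0 h and 1 h, the log2 ratios were -0.03 and -0.02 for *FADD*, -0.08 and 0.10 for *CASP8* and 0.01 and 0.04 for *CFLAR*. The difference between the pairs with and without CPT was called for each of them (edgeR adjusted p = 0.0346, 0.0375 and 0.0355).

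**Figure D3:**
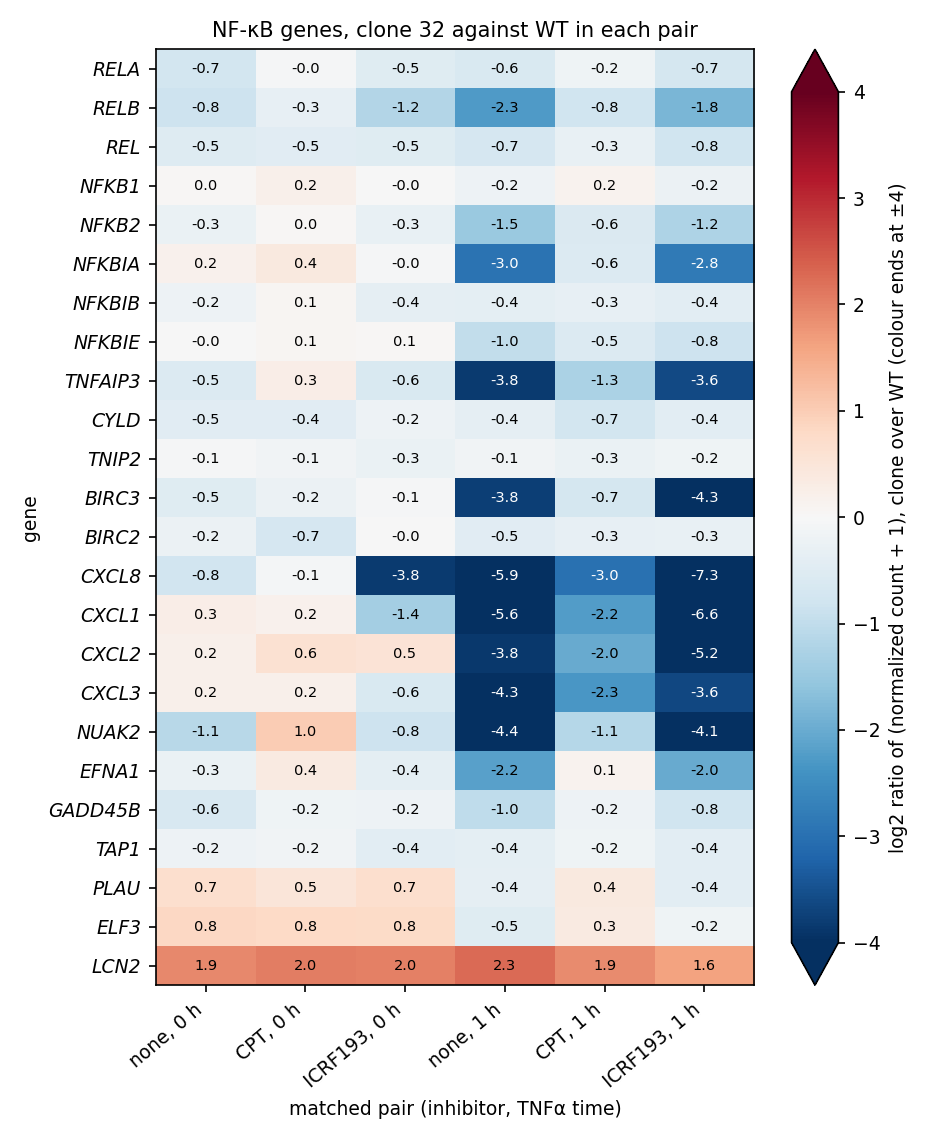
Log2 ratio of (normalized count + 1), clone 32 over WT, of 24 NF-κB genes (rows) in each of the 6 pairs (columns). Colour and number give the ratio. The deep blue fields of *CXCL1*, *BIRC3* and *TNFAIP3* stand in the pairs at 1 h without CPT. *CXCL8* is also deep blue with ICRF193 at 0 h, where its normalized count was 13.2 in WT and 0 in clone 32, whereas *RELB* is below 0 and *LCN2* above 0 in every pair.

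Canonical κB letters were searched in the promoters of the lowered targets, since NF-κB dimers bind such letters. The motif was GGG, any 2 bases, then TTTCC, on either strand, in the window from 250 bases before to 50 bases after the transcription start (RefSeq, GRCh38.p14). It was found in 6 of the 14 lowered targets with a promoter in the table, of 16 lowered, and in 9 of 34 targets with a promoter, of 43 tested. Over all 35116 promoters it was found in 671 (1.91%), which is no reference for a list of known NF-κB targets. Of the 13730 tested genes, 10747 had a promoter in the table, which is under 80%, so a comparison of shares between gene groups is void. Windows around the motif, which is in capitals, are shown on the strand of the gene. *CXCL1*, *CXCL2* and *CXCL3* are neighbouring chemokine genes and differ here only in the bases beside the motif, and *TNFAIP3* holds 2 overlapping windows.
CXCL1: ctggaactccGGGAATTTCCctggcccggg
CXCL2: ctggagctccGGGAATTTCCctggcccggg
CXCL3: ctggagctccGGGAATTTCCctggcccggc
BIRC3: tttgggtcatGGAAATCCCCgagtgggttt
TAP1: gcctgttcctGGGACTTTCCgagagccccg
TNFAIP3: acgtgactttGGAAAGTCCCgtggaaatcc
TNFAIP3: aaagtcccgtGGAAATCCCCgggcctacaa
The windows lie at chr4:73869304-73869333 (plus strand), chr4:74099254-74099283 (minus), chr4:74038749-74038778 (minus), chr11:102317275-102317304 (plus), chr6:32853757-32853786 (minus), chr6:137867182-137867211 (plus) and chr6:137867194-137867223 (plus), in the order above. The motif starts 79, 78, 79, 199, 72, 67 and 55 bases before the transcription start. It runs on the other strand in *BIRC3* and *TNFAIP3*. Among the genes printed, *CXCL1*, *CXCL2* and *CXCL3* had log2 fold changes of 3.52, 2.19 and 1.72 more with CPT than without, of which that of *CXCL1* passed the test (edgeR adjusted p = 0.0191). A match of letters is no measure of binding.

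Genes of cholesterol synthesis and uptake were lower in clone 32. Sterol synthesis runs from acetyl-CoA through mevalonate, squalene and lanosterol to cholesterol, and its genes are under the common control of the SREBP2 factor. Of 26 tested genes, 17 were lower and 0 higher over the 6 pairs, with a median log2 fold change of -0.39 (-0.38 at 0 h TNFα, where 14 were lower), against 16.9% lower over all genes. For 14 of the 26, every clone library was below every WT library, against 4.92% of all genes. The list median was between -0.23 and -0.53 in each of the 6 pairs. It was -0.38 in the 2 pairs of full depth and -0.36 in the 4 pairs with a low-depth library, with 11 and 18 genes lower. Over all genes, these fits called 295 of 14268 and 2256 of 13257 as lower.

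The mevalonate steps included *HMGCS1*, HMG-CoA synthase, with 1582 at the lowest, 1833 at the median and 1966 at the highest in WT and 840, 1234 and 1383 in clone 32 (log2 fold change -0.64 ± 0.06 (SE), edgeR adjusted p = 2.75e-06). *PMVK*, phosphomevalonate kinase, differed by -0.69, *MVD* by -0.52 and *IDI1* by -0.51. Of the squalene and lanosterol steps, *FDFT1* had 2799, 2938 and 3081 in WT and 2014, 2100 and 2295 in clone 32, and *SQLE*, squalene epoxidase, 2216, 2509 and 2554 against 1198, 1742 and 1887. Both were without overlap. *LSS* and *CYP51A1* differed by -0.35 and -0.43. The late enzyme *DHCR7* had medians of 2470 in WT and 1711 in clone 32, and *INSIG1*, a sterol sensor, had 1086 and 891. *SREBF2*, the gene of SREBP2, had 2147, 2171 and 2225 in WT and 1561, 1572 and 1747 in clone 32, a difference of -0.42 ± 0.04 (edgeR adjusted p = 3.01e-06). In contrast, *SREBF1* (0.02), *ACAT2* (0.09) and *TM7SF2* (0.01) did not pass the test.

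The clone-to-WT difference of this pathway also differed with CPT. In the 4 pairs without CPT, 18 genes were lower and 3 higher, beside 2955 lower and 2790 higher of all 13631 genes. The test of the clone effect in the 2 pairs with CPT against that in the 4 pairs without CPT called 956 of 13730 genes (6.96%), 426 with a higher and 530 with a lower value with CPT. Among the 26 cholesterol genes, the 12 called all went towards a lower value in clone 32 with CPT. *INSIG1* differed by a further -0.79 (edgeR adjusted p = 1.12e-05), *IDI1* by -0.69 and *MSMO1*, a sterol demethylation enzyme, by -0.95 (edgeR adjusted p = 4.3e-05). *MSMO1* itself had a log2 fold change of -0.05 over 6 pairs. *FDPS*, *MVD*, *DHCR7* and *SREBF2* were lower in clone 32 with differences between CPT and the other pairs of 0.03, -0.04, -0.09 and 0.01. DESeq2 called 7 of the 26 genes in this test, and leaving out 1 pair at a time gave 10 to 12.

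**Figure D4:**
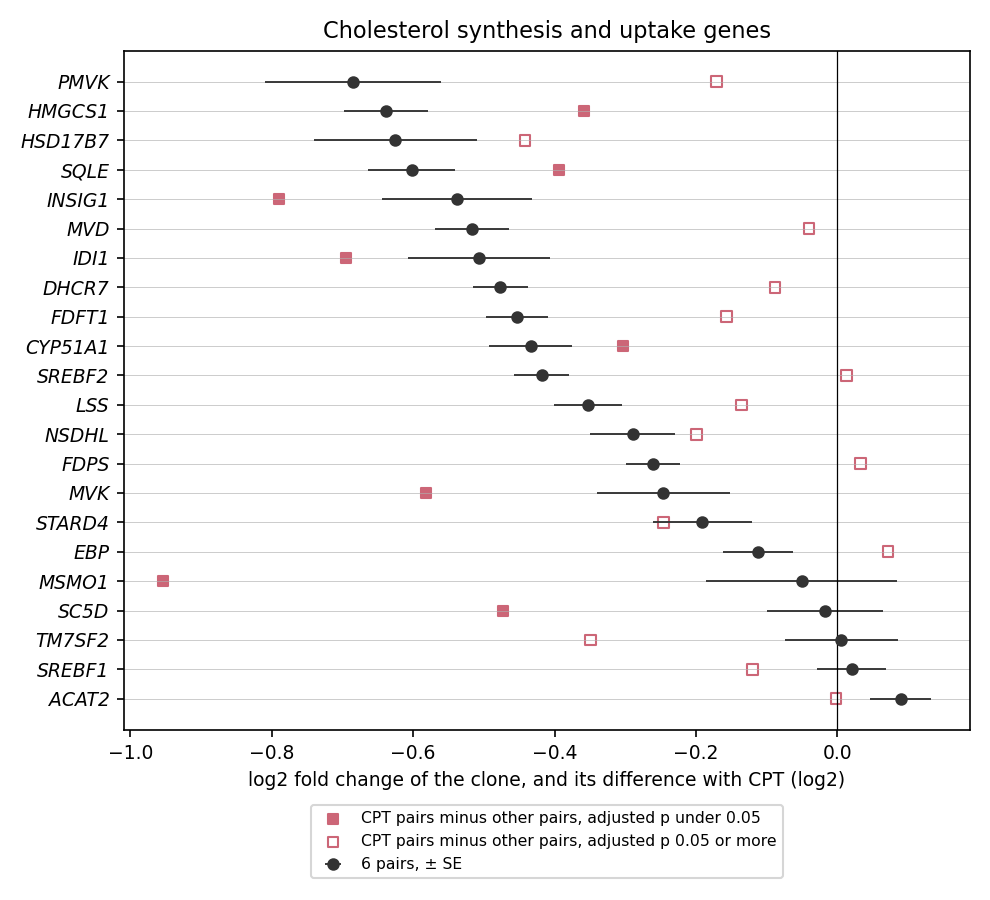
Log2 fold change of clone 32 against WT over 6 pairs (black, ± SE) for 22 of the cholesterol genes (rows), and the difference of the clone effect in the CPT pairs from the other pairs (red squares, filled where the adjusted p is under 0.05). The black points lie left of 0 for 19 genes, and the 8 filled squares all lie left of 0.

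NF-κB targets showed the opposite dependence on CPT. Of 43 tested, 11 were called in the same test, against 6.96% of all genes, and all 11 had a higher clone-to-WT value with CPT. These included *CXCL8* by 4.14 (edgeR adjusted p = 0.0108), *NUAK2*, a kinase, by 2.88 and *RELB* by 0.92. Without CPT, WT cells at 1 h had the high levels described above. DESeq2 called 3 of the 43, and without 1 of the pairs the count was 3 to 22.

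Of 20 tested TGFβ, BMP and ID genes, 4 were higher (20.0%, against 15.2% of all genes) and 6 lower (30.0%, against 16.9%). In the test of the clone effect with CPT, 8 of the 20 were called, against 6.96% of all genes, and 7 of the 8 had a higher value with CPT. *CYR61*, a matricellular protein, had 600, 555, 815 and 718 in the WT libraries without CPT and 159, 153, 218 and 177 in the clone libraries. With CPT it had 679 and 795 in WT and 772 and 830 in clone 32. The lines were thus apart only without CPT, and the difference between the effects was 2.03 ± 0.10 (edgeR adjusted p = 5.73e-11). *CTGF*, its relative, had a log2 fold change of -1.21 over 6 pairs, with a difference of 1.20 with CPT (edgeR adjusted p = 0.000262). *ID2*, an inhibitor of helix-loop-helix factors, had 1148, 1218 and 1581 in WT and 528, 594 and 1133 in clone 32. *ID1* went the other way, with medians of 1899 and 3674. *TGFB2* had medians of 44.0 and 23.6, and *BAMBI*, a pseudoreceptor, 110 and 120.

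Zinc finger genes of chromosome 19, many of which encode KRAB repressors, were shifted upwards. Of 153 tested, 57 were higher (37.3%, against 15.2% of all genes) and 3 lower, with a median log2 fold change of 0.21. The list median was above 0 in each pair, with 0.34 in both pairs with CPT and 0.11 to 0.18 in the pairs without it. In the test of the clone effect with CPT, 20 of the 153 were called, against 6.96% of all genes. Of these, 16 had a higher value with CPT. DESeq2 called 8 in this test, all higher. Past 2-fold were 8 genes, all higher. *ZNF772* had 1.66, 2.95 and 5.91 in WT and 11.1, 16.9 and 26.8 in clone 32, and *ZNF702P*, a pseudogene, 7.07, 11.7 and 12.8 against 27.9, 46.3 and 63.2. Neither gene overlapped between the lines. *ZNF324B* had medians of 139 and 279. The 829 other tested genes of chromosome 19 had 128 higher and 128 lower, with a median of 0.02, and 228 zinc finger genes with a ZNF symbol elsewhere had 48 higher and 27 lower, with a median of 0.07. In the 2 pairs of full depth, 9 genes of the list were called, all higher, with a median of 0.19, beside 226 higher and 295 lower of all 14268 genes. Zinc finger genes of this chromosome are closely related in sequence, and how shared reads were divided among them was not tested.

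Epithelial genes differed in both directions. Of 36 tested keratin, junction and basement membrane genes, 13 were higher (36.1%, against 15.2% of all genes) and 6 lower (16.7%, against 16.9%). *LAMA3*, a laminin chain, had medians of 252 and 458 and *ITGB4*, the laminin-binding integrin β4, 3781 and 5736, both above all WT libraries. *CDH1*, E-cadherin, had 1060, 1095 and 1203 in WT and 1326, 1432 and 1535 in clone 32. *KRT23*, a keratin, had 186 and 88.2. Of 13 mesenchymal genes, 3 were higher (23.1%) and 1 lower (7.69%). *SPARC*, a matricellular protein, was 5.20-fold higher, with 7.95, 11.7 and 13.3 in WT and 45.8, 56.7 and 71.6 in clone 32. Fibroblast markers summed to 75.4 to 138 in WT and 82.8 to 197 in clone 32, and their part in this difference was not tested. Of 28 HOX genes, 6 were higher and 0 lower, among them *HOXB3*, *HOXB4*, *HOXB5*, *HOXB6* and *HOXB7* with log2 fold changes of 0.28 to 0.65. The share of higher HOX genes was 21.4%, against 15.2% of all genes. The 4 pairs without CPT had 7 higher and 4 lower, beside 2790 higher and 2955 lower of all 13631 genes. The fit without the block had 3 higher, and edgeR called none in the 2 pairs of full depth, where 1 was higher and 2 lower at an unadjusted p under 0.05. Of 57 clustered protocadherin genes, only 3 were tested. All 3 were called higher over the 6 pairs, against 15.2% of all genes. At 0 h TNFα and in the 2 pairs of full depth, 0 of them were called, with medians of 0.44 and 0.45.

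Other lists had genes called in both directions, beside the 15.2% higher and 16.9% lower of all genes. Of 25 EGFR and MAPK output genes, 5 were higher (20.0%) and 6 lower (24.0%). *AREG*, an EGFR ligand, had medians of 97.3 and 52.5 and *ERRFI1*, a feedback inhibitor of EGFR, 12600 and 8676. *ERBB2* and *ERBB3* were higher in every clone library than in every WT library, by 0.28 and 0.30. Of 13 Wnt targets, 4 were higher (30.8%) and 3 lower (23.1%), with *AXIN2*, *RNF43* and *EPHB3* higher by 0.77, 0.80 and 0.83. The largest difference of this list went the other way, with *DKK1* at -1.40. *SLC2A1* and *SLC2A3*, which encode glucose transporters, differed by 0.68 and -0.90 within a hypoxia and glycolysis list of 30 genes (4 higher, 13.3%, and 5 lower, 16.7%). The stress response list had 7 higher and 7 lower of 25 (28.0% each), with a median of -0.03. The NRF2 list had 4 higher (18.2%) and 6 lower (27.3%) of 22 and the p53 list 5 higher (17.2%) and 7 lower (24.1%) of 29, with medians of -0.01 and -0.03.

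Over the 6 pairs, proliferation genes were called at no larger share than the 15.2% higher and 16.9% lower of all genes. Of 36 DNA replication genes, 4 were higher and 3 lower (median 0.03), and of 36 mitotic genes, 4 were higher and 5 lower (median -0.01). Replication-dependent histone genes had 6 higher and 2 lower of 46. At full depth, 7 were higher and 0 lower, with a median of 0.32, beside 224 higher and 288 lower of all genes. The pairs with a low-depth library had 2 higher and 6 lower, with a median of -0.01, beside 2185 higher and 2256 lower of all genes. Of the 46, 10 were called in the test of the clone effect with CPT, all with a higher value with CPT, against 6.96% of all genes called. Ribosomal protein genes had 32 lower and 4 higher of 79, with a median of -0.10. In the pairs of full depth, 1 was called, as higher, with a median of -0.01. In the pairs with a low-depth library 45 were lower, with a median of -0.14, beside 2256 lower of all genes. The list median was 0.03 and -0.02 in the pairs with CPT at 0 h and 1 h. Without inhibitor and with ICRF193 it was -0.07 and -0.15 at 0 h and -0.23 and -0.21 at 1 h. The 4 pairs without CPT had 51 lower and 3 higher, beside 2955 lower and 2790 higher of all 13631 genes. The parts of depth, of CPT and of TNFα time in this shift were not tested. The full-depth clone libraries, without inhibitor and with CPT, were both at 0 h, and all clone libraries at 1 h were of low depth. Depth and TNFα time therefore partly coincide, also for the histone genes. Small non-coding RNA genes, grouped after their values were seen, had 110 lower and 6 higher of 252 tested, with a median of -0.28 (-0.26 at full depth and -0.36 in the other pairs). A set of small non-coding RNA genes without microRNA genes, and so unlike the 252, took 4.21% to 5.01% of the reads in WT. Its share was 4.44% and 5.24% in the full-depth clone libraries, beside 4.44% and 4.70% in the WT libraries of the same pairs, and thus not lower. In the other clone libraries it was 3.76% to 4.45%. Of the remaining lists, interferon-stimulated genes had 5 higher and 4 lower of 29, antigen presentation 2 and 4 of 19, imprinted genes 2 and 4 of 18, intestinal differentiation genes 0 and 1 of 6, and cancer-testis genes 0 and 1 of 4. The colon epithelial markers had 3 higher and 0 lower of 6, and the 1 tested fibroblast and the 1 tested endothelial marker were not called.

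**Figure D5:**
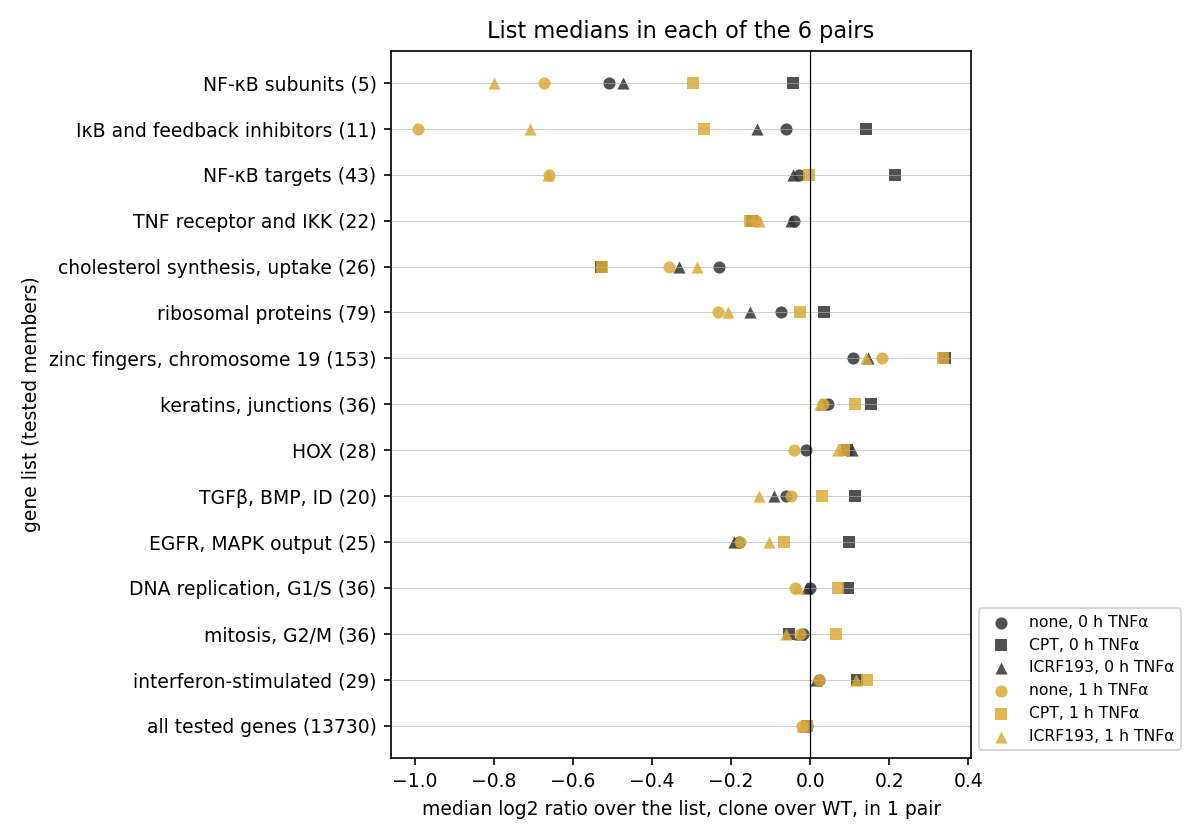
Median log2 ratio of clone 32 over WT (horizontal axis) of 14 gene lists and of all tested genes (rows, number of tested genes in brackets), with 1 point per pair, shaped by inhibitor and coloured by TNFα time. The cholesterol list lies left of 0 and the zinc finger list right of 0 in all 6 pairs, while the NF-κB target list lies near -0.66 only in the pairs at 1 h without CPT.

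By median, no large region was shifted as a whole, which does not show where the genes past 2-fold lie. Over 284 windows of 10 Mb with at least 10 tested genes, the median log2 fold change lay between -0.18 and 0.18, and 0 windows departed from that of all genes by more than 0.3. By chromosome, the medians ran from -0.03 on X to 0.04 on chromosome 19. On a smaller scale, a search made after the data were seen found 17 groups of neighbouring genes, 38 genes in all, that were past 2-fold in the same direction with starts within 500 kb of each other. How many such groups would arise without any link between neighbours was not tested. *MKX*, *ARMC4* and *MPP7*, all lowered, are adjacent on chromosome 10 from 27961803 to 28571067 (hg19) and are the 3 tested genes of that stretch. *SGCE* and the imprinted retrotransposon-derived gene *PEG10* (medians of 88.4 and 26.8) lie side by side on chromosome 7 from 94214536 to 94299006. *ARID5B*, *RTKN2* and *ZNF365* formed a lowered group on chromosome 10, *FGF19* and *ANO1* a raised pair on chromosome 11, and *CXCL8*, *CXCL1*, *CXCL3* and *CXCL2* the largest group, on chromosome 4. In other groups, only some of the tested genes of the stretch were past 2-fold in the same direction. These were 2 of 8 for *ZNF772* and *ZNF154*, and 2 of 7 both for *CNTN2* and *BLACAT1* and for *MRI1* and *PODNL1*.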

How the data were processed

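The 12 deposited tables hold raw read counts of 26364 gene symbols. Per the file headers and the methods of the study, the authors trimmed the reads with trimmomatic (first 10 bases removed), mapped them to hg19 and counted exons with featureCounts 1.5.0. STAR is named in the submitters' processing notes. The kit marks strand, but counting used no strand option, so overlapping and antisense genes cannot be told apart.

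Counts were tested with edgeR 4.0.16 (R 4.3.3) after filterByExpr, with TMM scaling, the pair as a block and Benjamini-Hochberg adjustment. Normalized counts are deposited counts divided by DESeq2 1.42.0 size factors, and have no length scale, so levels were not compared between genes. The tests were checked on simulated counts over 13730 genes, of which 200 with a mean of at least 50 were changed 2-fold. The 6-pair comparison recovered 200 with 7 false calls, the 0 h comparison 200 with 13 and the CPT comparison 191 with 11. All genes had the same dispersion of 0.005, and no treatment effect or other variation between pairs was simulated. The check therefore does not show how the tests behave where the clone-to-WT difference varies between treatments. Counting intervals are Clopper-Pearson.

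Named were *RELA*, the 15 genes lowered and raised most (mean normalized count of at least 50, same direction in 6 pairs), list members past 2-fold, NF-κB list members with a mean of at least 20, and genes silent in 1 line. The samples, the gene lists and this rule were chosen with earlier results of these data known, and further list members were named after their values were seen. Some genes that meet the rule are not reported here. Alternatives were other scaling, filters, DESeq2, thinning to 8101212 reads, no block, and subsets of pairs.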

Additional observations from a re-analysis of the deposited data

Results flagged for a closer look

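The clone-to-WT difference with CPT departed from that without CPT, by a test of the difference itself (edgeR adjusted p under 0.05), in 22 of the 133 named genes (16.5%), against 6.96% of all tested genes. Many named genes are NF-κB list members. The departure on the log2 scale was above 0 for 19 genes. Among these, it was 4.14 for *CXCL8*, 3.52 for *CXCL1*, 2.88 for *NUAK2*, 1.77 for *NFKBIZ*, 1.46 for *EFNA1*, 0.99 for *KLF6*, 0.92 for *RELB*, 0.90 for *NFKBID*, 0.89 for *ZC3H12A*, 0.83 for *MAP3K14*, 0.80 for *IER3*, 0.79 for *PLK2*, 0.67 for *DUSP2*, 0.51 for *RELA*, 0.46 for *GADD45B* and 0.38 for *CFLAR*. Outside the NF-κB and TNF lists, it was 2.03 for *CYR61*, 1.20 for *CTGF* and 3.30 for *CNTN2*, a neuronal adhesion gene with a mean of 9.37 normalized counts. The departure was below 0 for *TNFRSF1A* (-0.54), *FADD* (-0.42) and *CASP8* (-0.38). A departure above 0 is a change of the ratio, and the ratio itself could stay below 0 with CPT, as for *CTGF* (-0.56 at 0 h and -0.64 at 1 h) and *RELB* (-0.33 and -0.80).

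In 5 of 125 named genes with a ratio in every pair (4.0%), the log2 ratio of 1 pair stood apart from the other 5 by Dixon's test, which chance does in about 1 of 20 groups, so that the number is no larger than chance gives. The value was 0.048 for *BCL2L1* in the pair with CPT at 0 h, where the other pairs had -0.19 to -0.11. It was -2.28 for *PEG10* and 0.95 for *MB*, the myoglobin gene, both in the untreated pair. For *HCRTR1*, an orexin receptor gene, it was 6.69 in the untreated pair, against -0.61 to 1.20 in the others. For *SPTSSB* it was -4.48 in the pair with ICRF193 at 1 h, which has a clone library of low depth.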

How the results depend on the processing

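The main limits are the single clone, the single library per condition and the low depth of 4 clone libraries, so small differences between 2 pairs were not detectable. Without the pair as a replicate block, the 6-pair counts fell to 1042 higher and 1001 lower. The 2 pairs of full depth gave 226 higher, 295 lower and 57 past 2-fold higher. The 3 pairs at 1 h gave 1382 and 1510. Past 2-fold higher were 184 genes with no filter and 164 without the CPT pairs. Leaving out 1 pair gave 1459 to 2497 higher, 1723 to 2639 lower, 98 to 123 past 2-fold higher and 118 to 144 past 2-fold lower. The mean log2 ratio of *RELA* stayed between -0.54 and -0.41.

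At 0 h, no filter gave 966 higher and 1004 lower, DESeq2 287, 413 and 38 past 2-fold higher, and no replicate block 52, 83, 17 and 56 (past 2-fold higher and lower). Leaving out 1 pair gave 226 to 1883 higher, 295 to 1948 lower, and 57 to 149 and 113 to 176 past 2-fold. The highest counts came without the CPT pair. The cause was not tested. For the CPT difference, no filter gave 674 higher, thinning 278 and 323, and DESeq2 246 higher and 129 lower, with 48 and 7 past 2-fold. Leaving out 1 pair gave 150 to 986 higher and 171 to 1130 lower, with 29 to 131 and 26 to 73 past 2-fold. The lowest counts came without the CPT pair at 0 h and the highest without the CPT pair at 1 h. Silent genes fell from 5 to 1 with 50 reads required and to 3 with thinning.

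Among 96 called named genes under these settings, 1490 of 1682 values kept direction and call, 184 lost the call and 8 turned. In the 2 pairs of full depth, *NFKBIE* was at 0.025, *CXCL1* at 0.22, *CXCL2* at 0.47, *CXCL3* at 0.23, *EFNA1* at 0.031 and *TIFA* at 0.029. At 0 h, *NFKBIE* was at 0.038 and *CXCL2* at 0.50. Both subsets lack WT libraries at 1 h TNFα. *RELA* lost its call in the 2 pairs of full depth (-0.39). The cholesterol list had 14 to 19 lower genes over 6 pairs with other scaling, filters, DESeq2, thinning, no block or 1 pair left out, and under the same settings the zinc finger list had 17 higher genes with no block and 41 to 63 with the others. The ribosomal list had 4 lower genes with no block and 13 to 44 with 1 pair left out. NF-κB targets had 6 lower genes with DESeq2, 8 with no block and 9 to 22 with 1 pair left out.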
